A study of Bos taurus with 54 samples.

Results

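The core of the interleukin-1 and interleukin-18 system is described here by 10 genes, namely the ligands IL1A, IL1B and IL18, the receptor antagonist IL1RN, the receptor chains IL1R1, IL1RAP, IL18R1, IL18RAP and IL1RL1, and the decoy receptor IL1R2. They were selected by symbol as 10 of the 32637 genes in the count tables, and the choice was made with their levels before and after heat already known. For that reason every heat stress against control value of these 10 genes below is a description and carries no test. Tests of these 10 genes are given for contrasts among control libraries, between the kits and between the sample number runs, which did not enter the choice. Differences between kits or runs in the heat response are made of the values that chose the genes, and they are given as descriptions too. Other genes are printed with adjusted p values for heat stress against control. Those genes were listed or named with results of these data known, so these p values are no independent tests.

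IL-1α and IL-1β bind IL1R1, which recruits the accessory chain IL1RAP to signal through MYD88 and NF-κB, while IL1RN occupies IL1R1 without signalling and IL1R2 binds the same ligands but lacks the intracellular domain that signals. IL-18 binds IL18R1, which pairs with IL18RAP, and IL1RL1 (also called ST2) is the receptor for IL-33 and pairs with IL1RAP. In blood, IL1R2 is known as a gene of neutrophils and monocytes that glucocorticoids raise, IL18R1 and IL18RAP are best known on T and NK cells, and IL1RL1 on mast cells, basophils, eosinophils and some lymphocytes.

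Whole blood came from 15 Holstein male calves kept in climate controlled rooms, drawn in the morning before heat (6AM, labelled Normal, here control) and in the evening straight after 12 h of heat (6PM, labelled Heat Stress). All calves were of one breed and sex, and the labels give no age. Red cells were lysed before RNA extraction. The 29 RNA samples gave 54 libraries, 27 per kit. The kits were SMART-Seq v4 3′ DE of Takara, called Takara here, and QuantSeq 3′ of Lexogen, called Lexogen here, and both read the 3′ ends of polyadenylated transcripts. The 2 libraries of animal 20, on whose time the sources disagree, stand outside the groups, which leaves 13 control and 13 heat stress libraries and 12 animals with both times in each kit. Heat and time of day changed together and cannot be told apart, and there was no group sampled in the evening without heat.

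Counts on genes per library ranged from 5140595 to 20699030 in Takara and from 4516761 to 58521751 in Lexogen. Levels are given as CPM, the share of a gene in all counts on genes of its library brought to a common total, with library sizes scaled by TMM, a normalization on the bulk of the genes. In blood, fewer cells of a type and less RNA per cell cannot be told apart. The sample numbers form 2 runs, 8 animals in run 1 and 7 in run 2, which no label describes as a batch. One feature of the libraries bears on every value below, since the heat stress libraries did not form a single level. In Takara, IL1R2 exceeded every control library in 7 heat stress libraries, those of animals 7, 15, 16, 18, 29, 36 and 40. The set was taken from IL1R2, and 297 of 12620 genes tested (2.35%) exceeded every control library in exactly these 7. The other 6 heat stress libraries, of animals 3, 12, 14, 19, 32 and 41, were not above all controls for those genes.

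IL1R2, the decoy receptor (chr11:6690101-6729069 on ARS-UCD2.0), had the widest spread between animals of the 10 genes. Its Takara control libraries lay between 3.01 and 69.4 CPM with a median of 27.9, and its heat stress libraries between 15.1 and 5276 CPM with a median of 1190. The 7 heat stress libraries named above, a set that IL1R2 itself defined, held 1190 to 5276 CPM. The other 6 held 15.1 to 45.1 CPM, inside the control range. Thus no heat stress library had a level between 45.1 and 1190 CPM. The Lexogen libraries showed the same gap, with controls from 0.626 to 47.4 CPM (median 9.53), 6 heat stress libraries at 629 CPM or more and 7 at or below 37.6 CPM. These 6 were animals 15, 16, 18, 29, 36 and 40, and animal 7 has no Lexogen heat stress library.

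**Figure D1:**
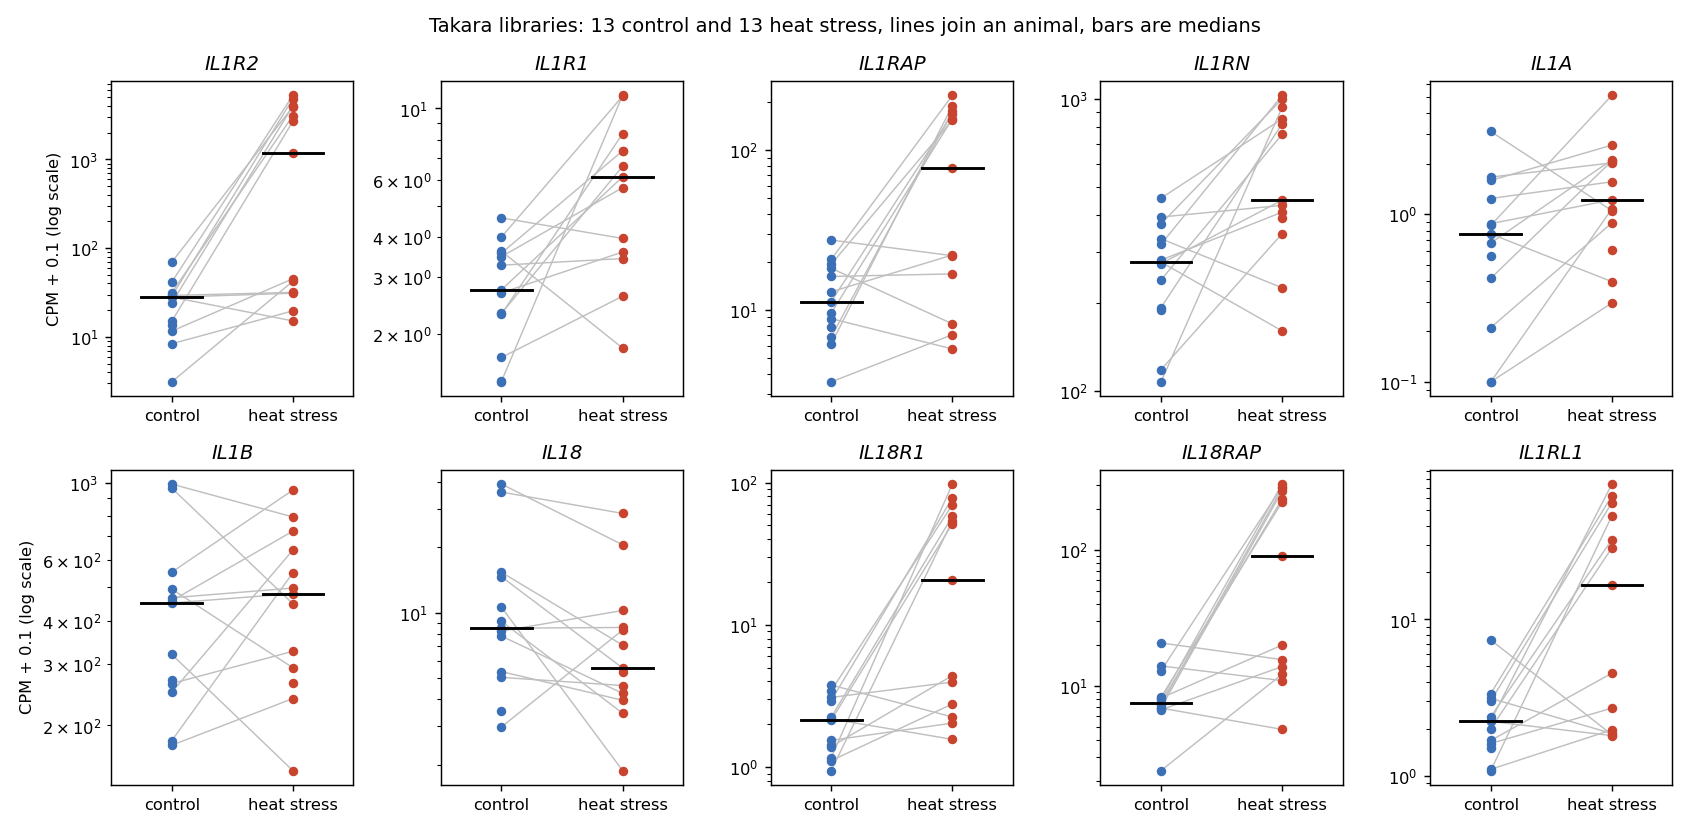
CPM plus 0.1 on a log axis for the 10 genes in 13 control (blue) and 13 heat stress (red) Takara libraries; each panel has its own scale, grey lines join the 12 animals with both times and black bars are medians. IL1R2 heat stress libraries fall at 45.1 CPM or below and at 1190 CPM or above, while IL1B and IL18 overlap fully between the times.

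The fitted IL1R2 difference, heat stress minus control, was 6.29 on the log2 scale (SE 0.95) in Takara and 5.72 (SE 0.90) in Lexogen. Within run 1 it was 6.66 and within run 2 5.93 in Takara, against 6.00 and 5.46 in Lexogen. These averages describe neither set of animals, because single pairs ranged from -0.87 to 7.45 in Takara and from -2.39 to 8.46 in Lexogen. Taken inside each animal, with the animal as a block, the values were 4.28 (SE 1.10) and 3.31 (SE 1.12).

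A gene was called when its Benjamini-Hochberg adjusted p in the edgeR quasi-likelihood test was under 0.05. Of the 9 members that passed the filter on low counts, 7 were called higher and 0 lower in Takara, where 18.4% of all genes tested were called higher and 10.5% lower. In Lexogen it was 6 of 9 higher and 0 lower, where 5.09% and 0.459% of all genes were. Both contrasts are those on which the genes were chosen, so nothing is read from these counts. The median member difference was 2.89 in Takara and 2.84 in Lexogen, beside -0.05 and -0.08 over all genes tested. Blocking by animal left 2 Lexogen calls (IL1RAP and IL18RAP) and 7 in Takara, and with animal 20 counted as a control it was 0 in both kits.

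The ligands did not share the separation of IL1R2. IL1B, which encodes the main secreted IL-1 (chr11:46543408-46551922), lay between 175 and 990 CPM (median 450.2) in Takara controls and between 148 and 951 CPM (median 479) in heat stress libraries. No heat stress library of either kit exceeded every control for IL1B, and the fitted difference was 0.13 (SE 0.28) in Takara and -0.01 (SE 0.31) in Lexogen. IL1B was higher after heat in 8 of 12 Takara pairs and in 8 of 12 Lexogen pairs. The lower Takara pairs, of animals 3, 7, 14 and 16, were all of run 2. In Lexogen the lower pairs were animals 3, 14 and 16 of run 2 and animal 12 of run 1. The Takara run 1 median was 450 CPM in controls and 550 CPM after heat, and that of run 2 was 407 and 310 CPM. The fitted difference pools both runs. The 7 animals whose IL1R2 was above all controls were spread through the IL1B range, from 265 CPM in animal 29 to 725 CPM in animal 15, and the highest IL1B level, 951 CPM, was that of animal 12, whose IL1R2 was within the control range.

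IL18, whose product drives interferon-γ release by T and NK cells (chr15:22475965-22501512), was lower in most animals after heat. Takara controls held 2.88 to 39.1 CPM (median 8.39) and heat stress libraries 1.78 to 28.6 CPM (median 5.47), so the groups overlapped. It was lower in 9 of 12 Takara pairs and in 10 of 12 Lexogen pairs, with fitted differences of -0.57 (SE 0.41) and -0.91 (SE 0.61). Blocked by animal, the values were -0.60 (SE 0.25) and -1.14 (SE 0.68).

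IL1A, the membrane-bound or alarmin form of IL-1 (chr11:46482553-46493533), was near the detection limit. It had at most 5.02 CPM in a Takara heat stress library (animal 15) and at most 3.02 CPM in a control. In Lexogen it was at 0 counts in 8 of 13 controls and 6 of 13 heat stress libraries. IL1A did not pass the filter on low counts of the heat stress against control fit in either kit and has no fitted difference from it. It passed the filter in the interaction fits given below.

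IL1RN, the receptor antagonist (chr11:46830420-46837406), was separated from the controls in part of the animals, unlike IL1B and IL18. Takara controls spanned 108 to 457 CPM (median 277) and heat stress libraries 161 to 1028 CPM (median 450.2). The libraries of animals 7, 15, 16, 18, 36 and 40, held 756 CPM or more, while animal 29, which was above controls for IL1R2, stood at 391 CPM. The fitted difference was 1.16 (SE 0.27) in Takara and 0.94 (SE 0.29) in Lexogen, where 4 of 13 heat stress libraries were above every control.

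Of the signalling chains, IL1RAP, shared by the IL-1 and IL-33 receptors (chr1:76479402-76723482), was high in the same Takara libraries as IL1R2. Takara controls held 3.46 to 27.3 CPM (median 11.2). The 7 heat stress libraries that were high for IL1R2 held 77.6 to 220 CPM for IL1RAP, and the other 6 held 5.62 to 22.02 CPM. The fitted difference was 2.89 (SE 0.53) in Takara and 2.84 (SE 0.47) in Lexogen. In Lexogen 11 of 12 pairs were higher after heat, against 9 of 12 in Takara.

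IL18R1 and IL18RAP, the paired chains of the IL-18 receptor, had the highest fitted differences after IL1R2. IL18RAP (chr11:7203304-7233771) held 2.30 to 20.6 CPM in Takara controls, 89.9 to 303 CPM in the same 7 heat stress libraries and 4.72 to 19.9 CPM in the other 6. Its fitted difference was 3.96 (SE 0.60) in Takara and 4.16 (SE 0.73) in Lexogen. For IL18R1 (chr11:7165279-7194967) Takara controls held 0.844 to 3.67 CPM and 9 heat stress libraries were above them. The same 7 libraries held 20.5 to 97.6 CPM, and animals 14 and 19 stood just above the controls at 3.86 and 4.30 CPM. Its fitted difference was 4.09 (SE 0.63) in Takara and 3.36 (SE 0.61) in Lexogen.

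IL1RL1, the IL-33 receptor (chr11:7127270-7165363), held 0.977 to 7.29 CPM in Takara controls. The same 7 heat stress libraries lay at 16.5 to 73.6 CPM and the other 6 at 1.70 to 4.43 CPM. The fitted difference was 3.42 (SE 0.61) in Takara and 2.87 (SE 0.77) in Lexogen. IL1RL1 and IL18R1 overlap by 85 bases on the genome, so reads from the shared bases are given to neither. The ligand of IL1RL1, IL33, did not pass the filter on low counts in either kit.

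Thus in Takara 3 other members, IL1RAP, IL18RAP and IL1RL1, were above every control in exactly the same 7 libraries as IL1R2. That exact pattern was held by 2.35% of all genes tested in Takara. At least 7 of 13 heat stress libraries were above every control for 11.1% of all genes tested in Takara, and at least 6 of 13 for 6.62% in Lexogen. In Lexogen no other member had exactly the same libraries as IL1R2, a pattern held by 0.72% of genes tested. By animal, animals 7, 15, 16, 18, 29, 36 and 40 were above every Takara control for 6 to 8 of the 10 members, and animals 3, 32 and 41 for 0. The 7 animals were set by IL1R2, itself a member, so nothing is read from these counts.

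**Figure D2:**
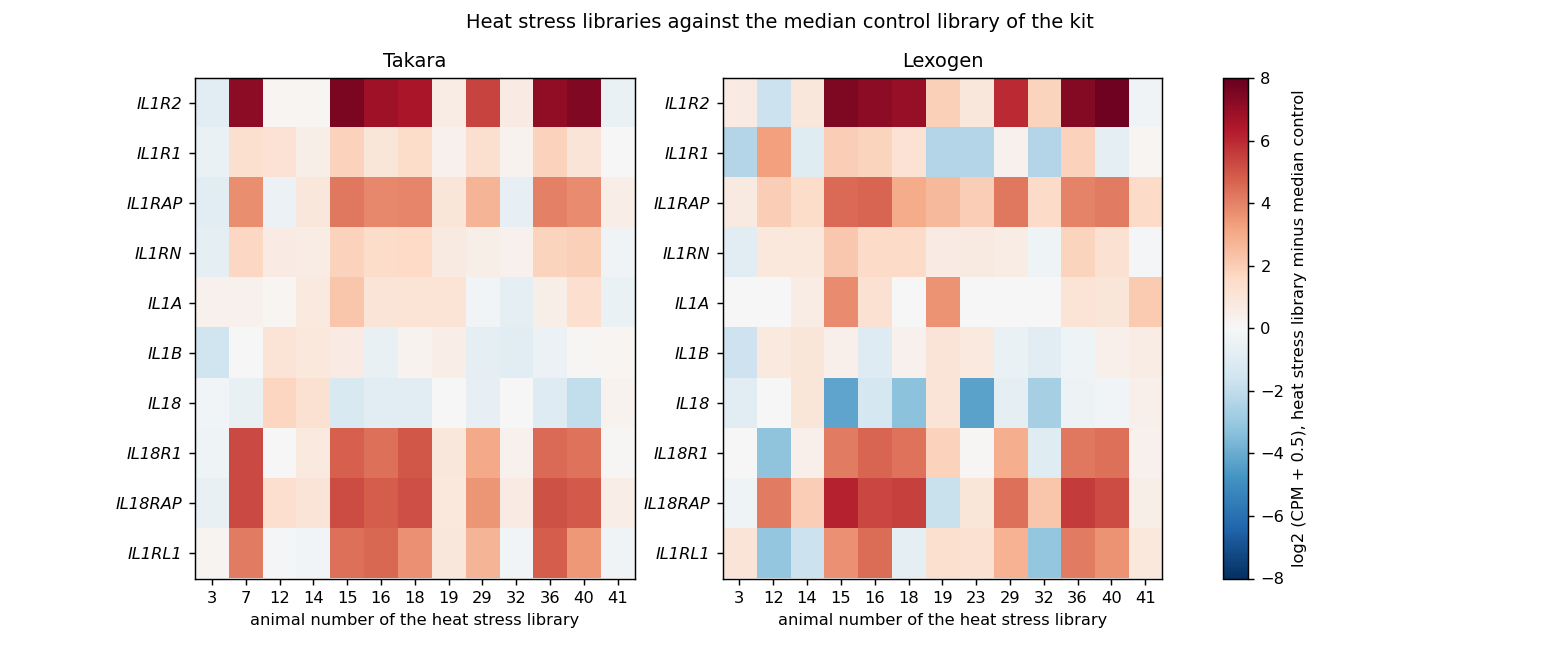
Each heat stress library (columns, by animal number) against the median control library of its kit, as the difference in log2(CPM + 0.5), for the 10 genes (rows); red is higher and blue lower. In both kits the dark columns are animals 15, 16, 18, 29, 36 and 40, and animal 7 in Takara, while IL1B and IL18 stay pale or blue in them.

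IL1R1, the signalling receptor (chr11:6781808-6915249), was the member most affected by how reads were counted. Its unstranded count summed to 1227 over the 27 Takara libraries, 17.7% of its sense count of 6918, and in Lexogen to 1408, 17.5% of 8037. For the other members the unstranded sum was between 100% and 112% of the sense sum. One end of IL1R1 shares 859 bases with the long non-coding RNA LOC132346540, which had 23 unstranded Takara counts and 5769 in the antisense column, the strand opposite to its own. Reads on bases that belong to 2 genes are set aside as ambiguous in an unstranded count.

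On the unstranded scale IL1R1 held 1.32 to 4.48 CPM in Takara controls and 1.71 to 10.9 CPM in heat stress libraries, of which 8 were above every control. On the sense scale the controls held 8.31 to 23.3 CPM and the heat stress libraries 12.5 to 54.2 CPM. Again 8 were above every control, but animal 14 took the place of animal 29. The fitted difference was 1.13 (SE 0.26) unstranded and 1.08 (SE 0.24) sense in Takara. In Lexogen it was 0.50 (SE 0.82) unstranded and 0.35 (SE 0.30) sense, and only animal 12 (unstranded) or only animal 16 (sense) was above every control.

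**Figure D3:**
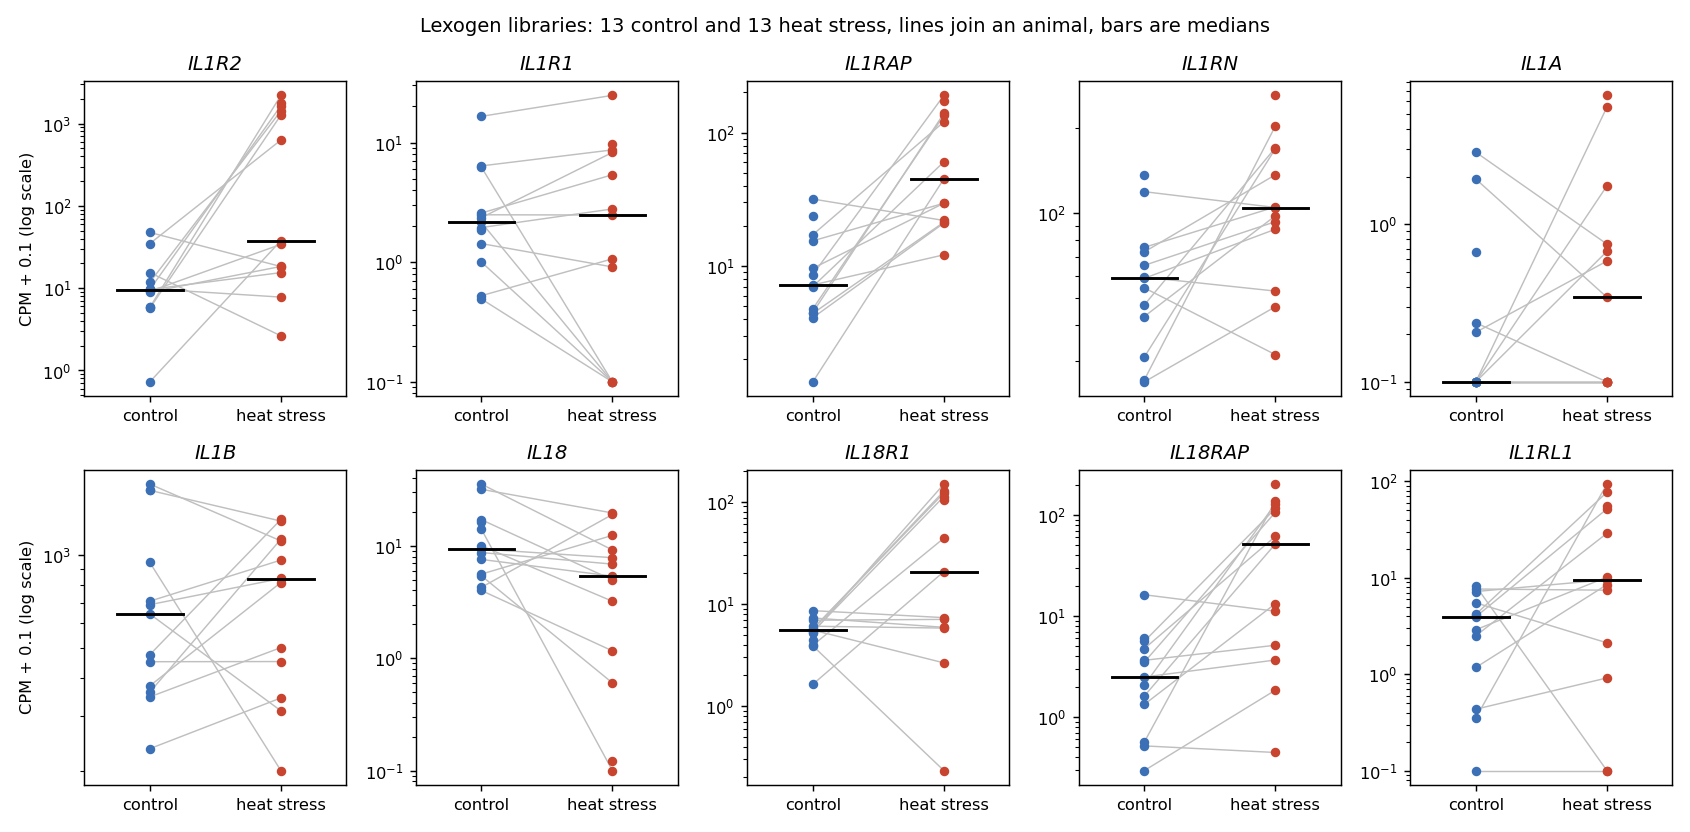
CPM plus 0.1 on a log axis for the 10 genes in 13 control (blue) and 13 heat stress (red) Lexogen libraries, drawn as for Takara. IL1R2 has 6 heat stress libraries at 629 CPM or above and 7 at 37.6 CPM or below, while IL1A, IL1R1, IL18 and IL1RL1 have libraries at 0, drawn at 0.1.

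The 12 heat stress RNA samples sequenced with both kits allow each animal to be read against itself. For IL1R2 the kits placed 6 RNA samples above every control in both and 6 in neither, with no sample split between the kits. For IL1RAP 6 were above in both and 1 (animal 19) in Lexogen alone, for IL18RAP 6 in both and 1 (animal 12) in Lexogen alone, and for IL18R1 7 in both and 1 (animal 14) in Takara alone. IL1RN had 4 in both and animal 40 in Takara alone. IL1RL1 had 5 in both, animal 18 in Takara alone and animals 3 and 19 in Lexogen alone. IL1R1 was split most often, with 1 RNA sample (animal 12) above in both and 6 in Takara alone, on the unstranded counts described above.

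The size of the heat response was set between the kits as a kit by time interaction. Of all genes tested 0.0374% were called, and of the 10 members 0 were, by edgeR or DESeq2, with 0 at an unadjusted p under 0.05. Nothing is read from this count, since both responses entered the choice. The difference between kits (Takara minus Lexogen) was -0.10 (SE 1.16) for IL1R2 and lay between -0.92 for IL1A and 0.34 for IL1R1 over the 10 members. The standard errors, from 0.44 for IL1RN to 1.28 for IL1A, leave wide intervals around these differences.

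The kits differed in the level they gave to the same control RNA for some members. Over the 12 control RNA samples in both kits, 3 of 9 members tested were called, beside 62.2% of all genes tested. IL1RN was 265 ± 104 CPM in Takara and 62.7 ± 34.8 CPM in Lexogen (mean ± SD, n = 12), higher in Takara in 12 of 12 samples, and the log2 difference was 1.79 (SE 0.27, edgeR adjusted p = 1.41e-06). IL1B was higher in Lexogen in 12 of 12 samples, at 811 ± 542 against 448 ± 277 CPM (log2 difference -1.14, SE 0.33, edgeR adjusted p = 0.00419). IL18R1 was likewise higher in Lexogen in 12 of 12 samples, at 5.42 ± 1.75 against 1.89 ± 0.895 CPM (log2 difference -1.79, SE 0.33, edgeR adjusted p = 3e-05). Antagonist and ligand, IL1RN and IL1B, thus differed between kits in opposite directions.

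IL18RAP was higher in Takara in 12 of 12 control samples and IL1R2 in 10 of 12, and neither was called without a block (log2 differences 1.00, SE 0.50, edgeR adjusted p = 0.081, and 0.79, SE 0.44, edgeR adjusted p = 0.119). With the RNA sample as a block both were called, at 1.58 (SE 0.47, edgeR adjusted p = 0.00731) and 0.94 (SE 0.31, edgeR adjusted p = 0.0131). On sense counts IL1R1 was also called, higher in Lexogen by a log2 difference of -1.21 (SE 0.27, edgeR adjusted p = 0.000322), against -0.59 (SE 0.48) on unstranded counts. The 2 chains of the IL-18 receptor thus differed between kits in opposite directions.

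The sample number runs were compared in the same way. For the run by time interaction, again made of values that entered the choice, 0 of 10 members passed in Takara, where 2.27% of genes tested did, and 0 of 10 in Lexogen, where 0.0222% did. DESeq2 called 0 members in both as well. The Lexogen standard errors, from 0.60 for IL1B to 2.47 for IL1A, leave wide intervals around these differences. In simulated counts the edgeR fit recovered 11.9% of genes changed 4-fold in Lexogen and 65.8% in Takara. These counts of 0 therefore show no agreement between the runs. At an unadjusted p under 0.05 there were 2 members in Takara, IL1R1 and IL1B, and 1 in Lexogen, IL1A. The IL1A difference in response, run 2 minus run 1, was -6.67 (SE 2.47), with Lexogen run 1 controls at a mean of 0.0347 CPM. For IL1B the Lexogen difference in response, run 2 minus run 1, was -1.18 (SE 0.60). Between the runs' control libraries 1 of 9 members, IL1R1, was called in Takara (higher in run 2 by 0.88, SE 0.24, edgeR adjusted p = 0.0357), beside 8.12% of all genes. That difference was -0.07 on sense counts and was not called there. In Lexogen controls 0 of 9 members were called by edgeR or DESeq2, 0 at an unadjusted p under 0.05, and edgeR called 0 of 11844 genes (1056 at an unadjusted p under 0.05, 58 by DESeq2). In simulated counts this edgeR fit recovered 52.1% of genes changed 4-fold.

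Of the receptor genes, 5 lie in one stretch of chromosome 11, IL1R2, IL1R1, IL1RL1, IL18R1 and IL18RAP in that order within 543.7 kb. IL1A, IL1B and IL1RN lie in a second group of 354.9 kb on the same chromosome. Within 600 kb on either side of the receptor group, 7 other genes were tested in Takara, of which 4 rose and 0 fell, and 8 in Lexogen, of which 2 rose and 0 fell, beside the 18.4% and 5.09% of all genes tested that rose. In this stretch CREG2, 465 kb before IL1R2, rose by 6.72 (SE 1.00, edgeR adjusted p = 0.000286) in Takara. In Lexogen it did not pass the filter, though it had 12966 counts in all there, against 9267 in Takara. The non-coding RNA LOC112448746, 52.7 kb before IL1R2, rose by 3.78 (SE 0.82, edgeR adjusted p = 0.0043) in Lexogen, with 2493 counts in all. In Takara it had 1521 counts and did not pass the filter, which asks for counts in enough libraries. The other genes of this stretch called in Takara were CNOT11 (1.20, SE 0.45) and the non-coding RNA LOC132346539 (1.497, SE 0.45). These neighbours were named after their values were seen. RNF149 rose in both kits, by 1.30 (SE 0.32, edgeR adjusted p = 0.00396) and 1.27 (SE 0.32, edgeR adjusted p = 0.0124), and IL1RL2, which lies between IL1R1 and IL1RL1 and encodes the IL-36 receptor, had 25 Takara counts in all and was not tested.

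**Figure D4:**
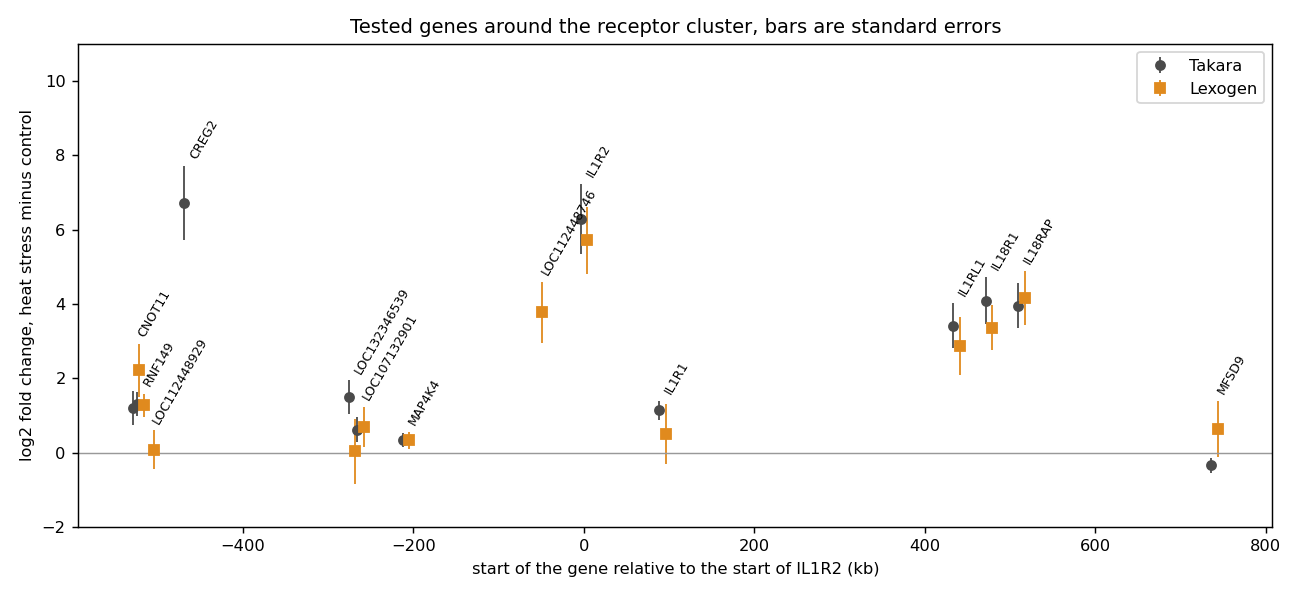
Log2 fold change, heat stress minus control, with standard errors, for each gene tested around the receptor group, by the distance of its start from that of IL1R2 in kb; circles are Takara and squares Lexogen. CREG2 at 6.72 and IL1R2 at 6.29 stand highest in Takara, and IL1R1 at 1.13 lies below the receptors on both sides of it.

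The counts that follow for other genes of the pathway stand beside 18.4% of all genes tested that rose and 10.5% that fell in Takara, and 5.09% and 0.459% in Lexogen. Of 12 other genes of the IL-1 family, 2 were tested in Takara. IL18BP, the secreted inhibitor of IL-18, rose by 0.76 (SE 0.28, edgeR adjusted p = 0.045), and SIGIRR, an inhibitory receptor of the family, fell by 0.61 (SE 0.17, edgeR adjusted p = 0.00893). Neither was called in Lexogen (0.21, SE 0.84, and -0.20, SE 0.54).

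Of 17 genes of receptor signalling tested in each kit, 3 rose in Takara and 1 in Lexogen, and 0 fell in either. Those shares, 17.6% and 5.88%, are near the shares of all genes that rose. MYD88, the adaptor of all these receptors, rose by 1.68 (SE 0.35, edgeR adjusted p = 0.00115) in Takara and by 1.41 (SE 0.34, edgeR adjusted p = 0.00935) in Lexogen. Its Takara controls held 75.6 to 397 CPM and its heat stress libraries 121 to 1447 CPM, with the same 7 libraries as IL1R2 above every control. PELI2, a ubiquitin ligase that acts on IRAK proteins, rose by 0.80 (SE 0.23, edgeR adjusted p = 0.0111) and IKBKG, a subunit of the IκB kinase complex, by 0.39 (SE 0.13, edgeR adjusted p = 0.0204) in Takara. Their Lexogen values, 0.87 (SE 0.44) and 0.19 (SE 0.41), did not pass. The median of the 17 genes was 0.20 in Takara and 0.19 in Lexogen.

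Of the genes for ligand processing and receptor shedding, 5 of 16 tested rose and 0 fell in Takara, and 0 of 14 passed in Lexogen. The largest rises were NLRP12, a NOD-like receptor, at 1.62 (SE 0.32, edgeR adjusted p = 0.000764), MEFV, the pyrin inflammasome sensor, at 1.53 (SE 0.31, edgeR adjusted p = 0.000914), and PSTPIP1, a partner of pyrin, at 0.96 (SE 0.19, edgeR adjusted p = 0.000968). Their Lexogen values were 1.28 (SE 0.46), 1.09 (SE 0.61) and 0.94 (SE 0.31).

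Of the genes that IL-1 is known to induce, 6 of 12 tested rose and 0 fell in Takara, with a median of 0.72, and 2 of 11 rose in Lexogen. TNFAIP6, a hyaluronan-binding inflammatory protein, rose by 3.29 (SE 0.49, edgeR adjusted p = 0.000286) in Takara and 2.03 (SE 0.54, edgeR adjusted p = 0.0194) in Lexogen. NFKBIA, the feedback inhibitor of NF-κB, rose by 2.01 (SE 0.38, edgeR adjusted p = 0.000589) and 1.64 (SE 0.34, edgeR adjusted p = 0.00297), and NFKBIZ by 0.85 (SE 0.24, edgeR adjusted p = 0.00959) in Takara. All of these lists respond to many signals besides IL-1, and they were drawn up with results of these data known.

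The genes whose Takara levels ranked most like IL1R2 over the 26 libraries, by Spearman correlation among 10833 genes tested in both kits, were PTX3 (0.912), SEPTIN5 (0.891), CPNE2 (0.884), SELPLG (0.884) and EYA3 (0.875). Their correlations in Lexogen were 0.702, 0.485, 0.561, 0.726 and 0.726. These are descriptions over libraries that fall into separate levels and share animals, and no test is attached. Among the members, IL1R1 ranked 91 in likeness to IL1R2, IL18RAP 153, IL18R1 295, IL1RN 547, IL1RL1 660 and IL1RAP 793, while IL1B ranked 3663 and IL18 ranked 7375 with a correlation of -0.35. In Lexogen the correlation with IL1R2 was 0.0925 for IL1R1, against 0.798 in Takara, and 0.612 for IL18RAP, 0.702 for IL18R1, 0.528 for IL1RN, 0.412 for IL1RL1 and 0.587 for IL1RAP.

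The summed level of neutrophil markers was higher in the 7 Takara heat stress libraries high for IL1R2 than in the other 6 and the controls. That split was made by IL1R2 itself, and a sum is weighted to its most abundant genes. The marker counts here and for other cell types stand beside the same shares of all genes tested. In Takara 18.4% rose and 10.5% fell, and in Lexogen 5.09% and 0.459%. Of 12 neutrophil genes, 11 rose in Takara with a median of 1.89, from 0.81 for MMP25 to 3.17 for MGAM, and CSF3R had 0.51 (SE 0.27, edgeR adjusted p = 0.164). In Lexogen 9 of 11 rose. The summed neutrophil level lay between 4528 and 21161 CPM in Takara controls and between 4111 and 110012 CPM in heat stress libraries. The 7 libraries with IL1R2 at 1190 CPM or more held 44489 CPM (animal 29) to 110012 CPM (animal 40), and the other 6 held 4111 to 26979 CPM. In Lexogen the controls held 1560 to 7483 CPM and the heat stress libraries 1900 to 35386 CPM, with the same 6 animals highest. None of the 12 neutrophil genes was at 0 in all libraries of a kit. The part of cell numbers in the values of IL1R2 and the other receptors was not tested.

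**Figure D5:**
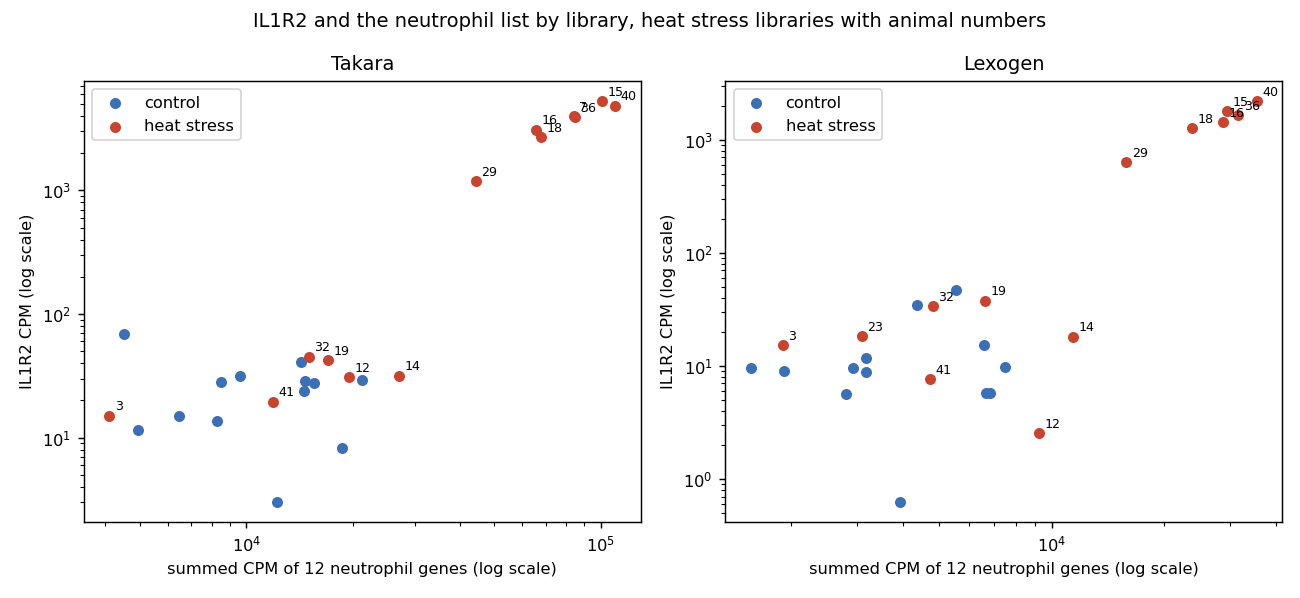
IL1R2 CPM against the summed CPM of 12 neutrophil genes in each library, both on log axes, for Takara (left) and Lexogen (right); blue is control, red is heat stress with the animal number. The libraries with IL1R2 at 1190 CPM or more in Takara lie at 44489 CPM or more on the neutrophil axis, apart from all others.

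Other cell types moved less. Of 11 T cell genes 5 fell in Takara (from -0.45 for CD3G to -0.55 for CD3E) and 0 in Lexogen. Of 8 B cell genes 1 (BLK) fell in Takara, and this 12.5% is near the 10.5% of all genes. The summed T cell level lay between 1224 and 2421 CPM in Takara controls and between 792 and 1839 CPM in heat stress libraries. Of 7 monocyte genes 3 rose in Takara (CD163, CD68 and VCAN) and 0 in Lexogen, with CD14 at 0.26 (SE 0.24) and CSF1R at 0.21 (SE 0.28) in Takara. Of the NK and cytotoxic genes 1 rose, NCR1, which is 12.5% of 8 tested in Takara and 14.3% of 7 in Lexogen. It rose by 1.20 (SE 0.24, edgeR adjusted p = 0.000762) in Takara and by 1.55 (SE 0.45, edgeR adjusted p = 0.0328) in Lexogen. The median of the list was 0.05 in Takara. For the eosinophil, basophil and mast cell genes, the cells for which IL1RL1 is best known, 0 of 5 tested were called in Takara and 0 of 4 in Lexogen, and their summed level was 51.6 to 317 CPM in Takara controls and 54.6 to 157 CPM in heat stress libraries. Platelet genes (0 of 4) and erythroid genes (0 of 2) were not called in either kit. Erythroid RNA remained after lysis, with a summed level of 462 to 3446 CPM in Takara controls and 613 to 2470 CPM in heat stress libraries.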

How the data were processed

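Whole blood RNA of Holstein calves was sequenced in 54 libraries. Per the labels and the study's methods, the authors trimmed reads with Trimmomatic 0.39, mapped them with STAR 2.7.10b to ARS-UCD2.0 and deposited raw counts of reads per gene, unstranded, sense and antisense. The unstranded counts were used, and sense counts as an alternative. Reads on no gene (unmapped, multimapped, featureless or ambiguous, 32.2% to 57.9% per library) stayed out of library sizes. Depth is given in the report, and without molecular identifiers a count is a read, not a molecule.

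Groups came from the labels. Animal 20 is labelled 6PM, while the study's sample list gives 1 calf with a control alone, so its libraries were left out and both assignments were run. Genes were filtered with filterByExpr, scaled by TMM and fitted with edgeR 4.0.16 in R 4.3.3 (quasi-likelihood test, time alone as in the study, adjusted p under 0.05). The interaction fits used kit or run with time. Alternatives were DESeq2 1.42.0, no filter, sense counts, total count as library size, the animal or RNA sample as a block, each run alone, and each library left out. Pair differences are log2(CPM + 0.5). Animal numbers pair the libraries because they name the same animal. Deviations from the group means correlated over 0.1 in 11 of 12 Takara pairs and in 2 of 12 Lexogen pairs. No 2 libraries agreed within sampling noise. Scripts were tested on simulated data.

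The genes and all lists were chosen with earlier results of these data known. Named are the 10 members, up to 3 rises and 3 falls of each pathway list called in Takara, and the 5 genes most like IL1R2 in rank. Of the lists, CARD16, CTSG, ADGRE1, SIGLEC8 and EPX had no row under that symbol. Positions are those of RefSeq on ARS-UCD2.0. Separate animals are the replicates within a group.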

Additional observations from a re-analysis of the deposited data

Results flagged for a closer look

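The 2 libraries of animal 20 entered no comparison and lay above every control library for most of the 10 genes. In Takara they held 4842 CPM for IL1R2, 4.87 for IL1R1, 226 for IL1RAP, 853 for IL1RN, 5.68 for IL1A, 47.7 for IL18R1, 201 for IL18RAP and 38.5 CPM for IL1RL1. In Lexogen the levels were 1842 CPM for IL1R2, 115.3 for IL1RAP, 209.9 for IL1RN, 60.7 for IL18R1, 85.4 for IL18RAP and 40.1 CPM for IL1RL1. IL1B was within the control range in both kits, as were IL18 in Takara and IL1R1 and IL1A in Lexogen. IL18 in Lexogen stood at 3.32 CPM, below the lowest control at 3.90 CPM. The summed neutrophil level of animal 20 was 115231 CPM in Takara and 40366 CPM in Lexogen, above every other library of its kit.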

How the results depend on the processing

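Of 908 values recomputed under the alternatives, 862 kept their direction and their side of the threshold or count. Among the headline values of that set 166 did so and 30 moved. With animal 20 as a control, calls over all genes fell from 3646 to 0 in Takara (3804 at an unadjusted p under 0.05) and from 616 to 2 in Lexogen, and members called from 7 and 6 to 0 and 0, with IL1R2 at 2.39 and 2.28. This assignment places a library with IL1R2 at 4842 CPM among the controls. That level cannot settle the time of animal 20, since IL1R2 was chosen with its heat values known. Run 1 alone gave 2630 genes and 7 members in Takara, and 402 genes and 4 members in Lexogen. Run 2 alone gave 931 genes and 4 members in Takara, and 0 genes (1275 unadjusted) and 0 members in Lexogen. These fits hold fewer samples. Leaving out 1 library at a time gave 2921 to 4360 genes and 7 to 7 members in Takara. In Lexogen it gave 429 to 784 genes and 4 to 6 members, with 4 without heat stress replicate 16 or 36. Over these 26 Lexogen fits IL1RN was called in 9 and IL1RL1 in 24. IL1R2, IL1RAP, IL18R1 and IL18RAP were called in all 26.

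With the animal as a block the Lexogen count was 66 genes and 2 members, DESeq2 gave 982 genes and no filter 3273. With the RNA sample as a block 5 members differed between kits in control, also with the total count as library size (5). The block reversed the kit difference of IL1R1 (0.10) and IL1RAP (0.019), and the total count that of IL1RAP (0.23) and IL18 (0.030), none of them called. Blocks changed no call of a member beyond those given here and in the report. The kit by time interaction held 5 genes, against 17 with DESeq2, 568 with no filter, 3 on sense counts and 0 with the RNA sample as a block (526 unadjusted), and IL1R2 turned to 0.068 on sense counts. The run by time interaction in Takara held 312 genes, against 602 with DESeq2, 146 with no filter, 158 with the total count and 171 when blocked by animal, and IL1R1 turned to 0.19 on sense counts. In Lexogen it held 3 genes, against 69 with DESeq2 and 0 with no filter (2342 unadjusted). Between the runs' controls in Takara, 1054 genes were called by edgeR and 1626 by DESeq2. The 1 member called there, IL1R1, was lost with no filter (0 members), sense counts (0) and the total count (0), and was -0.073 on sense counts. In Lexogen DESeq2 called 58 genes and edgeR 0. The cause of these shifts was not tested.

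The total count as library size moved the median Takara difference of all genes from -0.05 to -0.27 and the calls from 2325 higher and 1321 lower to 1301 and 2184. The same 7 members were counted higher. For the kits in control it moved the calls from 3804 and 3898 to 4853 and 2737, and for the runs' Takara controls from 658 and 396 to 408 and 852. In Lexogen, no filter gave 1701 higher and 1572 lower against 565 and 51, and the block 50 and 16. In the heat stress against control fits, IL1A and IL33 did not pass the filter on low counts in either kit.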
